A study of Rattus norvegicus with 65 samples.

Results

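The proteasome genes described here are 37 genes on a rat Affymetrix array whose symbol begins with Psma, Psmb, Psmc, Psmd or Psme followed by a digit. The symbol decided which genes were taken, and this choice was made with earlier results of these data known. The 37 came from 10411 genes that had a probe set of their own, and all were bright enough to be among the 8499 genes tested. Carcinogen-induced mammary tumors of the rat were carried through syngeneic hosts for 5 generations, and total RNA from frozen tumor tissue was measured on 65 arrays. The series was built to compare tumors that differ in invasion and metastasis, but the labels give no phenotype for single tumors, so the groups here are tumor lines and generations. There were 11 lines, numbered 10, 13, 17, 19, 25L, 25R, 32, 33, 34, 36 and 42, each with a primary tumor and transplants 1 to 4. Transplant 5 was measured in 10 lines, all except series 10. Every line descends from 1 primary tumor, and each group holds 1 tumor per line. Lines 25L and 25R are the left and right of series 25 in the titles, and whether they came from 1 animal is not stated, so the 11 lines may hold 10 animals. They were counted as separate lines. The rat strain, the carcinogen, the age and sex of the animals and the site of grafting are not given in the sources used here. All values below are log2 intensities after scaling the arrays to the same median.

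The proteasome is the barrel-shaped protease that degrades proteins tagged with ubiquitin. Its 20S core is a stack of rings of alpha subunits, which form the gate, and beta subunits, some of which carry the protease sites, and a 19S cap of ATPases (Psmc genes) and non-ATPases (most Psmd genes) recognises and unfolds the substrate. Interferon induces alternative beta subunits, which replace constitutive ones in the immunoproteasome, and the PA28 activator that opens the core without ATP, and the peptides released are loaded onto MHC class I. The genes of the core and cap are under a shared control by the transcription factor Nfe2l1, which acts through antioxidant response elements. By these roles the genes fall into 7 alpha subunits (Psma1 to Psma7), 6 constitutive beta subunits (Psmb1 to Psmb5 and Psmb7), 2 immune beta subunits (Psmb9 and Psmb10), 5 cap ATPases (Psmc1 to Psmc5) and 9 cap non-ATPases (Psmd1, Psmd2, Psmd3, Psmd4, Psmd6, Psmd7, Psmd8, Psmd11 and Psmd13). Another 3 are chaperones that assemble the cap and leave it (Psmd5, Psmd9 and Psmd10), 2 encode PA28 (Psme1 and Psme2) and 1 encodes the activator PA200 (Psme4). The symbol rule also takes in 2 genes that encode no subunit: Psmc3ip, a recombination factor of meiosis, and Psme3ip1, a protein that binds the nuclear activator PA28 gamma. Psmb6, the constitutive subunit that Psmb9 replaces, and Psme3 were on the array only in probe sets that carry several gene symbols, and they were not counted.

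The promoters of 35 of the 37 genes were found in the RefSeq table (assembly GRCr8, 250 bases before to 50 after the start of each gene). The interferon-stimulated response core, which is GAAA, any 2 bases and GAAA again on either strand, occurred in 5 of these 35 windows (14.3%), those of Psma4, Psmb3, Psmb10, Psmd7 and Psme2, and in 3.92% of all 33469 windows. The antioxidant response core, TGACNNNGC on either strand, occurred in 7 (20%), those of Psma3, Psmb2, Psmb5, Psmd1, Psmd3, Psmd9 and Psme4, and in 12.1% of all windows. The STAT site TTCNNNGAA occurred in 2 (5.71%), Psmd3 and Psmd7, and in 8.87% of all windows. No matches of different motifs overlapped within these genes. A match describes letters and shows no binding. Shown here are the 140 bases before the start of Psmb10 and Psme2, an immune subunit and a PA28 subunit whose levels moved together between tumors, and of Psmd9, whose rise in the transplants was the largest of the 37. They are written 5′ to 3′ on the strand of the gene, which is the minus strand for all 3, and capitals mark matches to the interferon-stimulated core in Psmb10 and Psme2 and to the antioxidant core in Psmd9.
Psmb10, chr19:50743293-50743432: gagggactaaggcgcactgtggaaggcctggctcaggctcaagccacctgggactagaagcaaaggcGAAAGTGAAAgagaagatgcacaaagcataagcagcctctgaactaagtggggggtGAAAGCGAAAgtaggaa
Psme2, chr15:33052752-33052891: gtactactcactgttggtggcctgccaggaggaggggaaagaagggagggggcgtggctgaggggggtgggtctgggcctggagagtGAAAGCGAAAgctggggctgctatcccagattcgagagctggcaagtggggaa
Psmd9, chr12:39018265-39018404: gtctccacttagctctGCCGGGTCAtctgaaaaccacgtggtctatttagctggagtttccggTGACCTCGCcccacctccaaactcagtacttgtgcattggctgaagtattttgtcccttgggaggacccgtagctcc

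Psmb10 carries the interferon-stimulated core at 2 places in this stretch and Psme2 at 1. In Psmd9 the antioxidant core occurs on the reverse strand and, nearer the start, on the forward strand. The window of Psmb9 holds none of the 3 motifs.

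The array medians before scaling lay between 96.1 and 176, and the lowest belonged to the transplant 5 tumor of series 32, where the next lowest was 143. The ratio of 3′ to 5′ Gapdh probe sets, a sign of RNA integrity, had a median of 0.05 (log2) in the primary tumors and of 0.11 to 0.16 in the transplant generations. The mean of 10 epithelial marker genes had a median of 10.10 in the primary tumors, but in series 42 it lay between 5.40 and 5.51 on all 6 arrays, next to the floor of 5.31 set for dim signals. That mean also reached 5.76 in series 32 and 5.47 in series 34, so the defining markers of mammary epithelium were near the floor in some or all tumors of 3 lines. T and NK cell markers averaged 6.54 to 8.79, with the highest value in a tumor of series 32. Tissue samples mix cells, so fewer cells of a type and less RNA per cell cannot be told apart.

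The tumor line was the largest source of variation in most of the proteasome genes, but not in the immune and PA28 genes. Of the 37 genes, 35 differed between lines (limma F test with generation in the model, Benjamini-Hochberg adjusted p below 0.05), where 83.5% of all tested genes did. Every alpha subunit, constitutive beta subunit, cap gene, cap chaperone and activator was among them, and the 2 that were not were the immune beta subunits, Psmb9 (adjusted p = 0.330 in limma) and Psmb10 (adjusted p = 0.246). The share of a gene's variance that lay between lines, after generation, had a median of 58.8% over the 37 genes and 42.9% over all genes. The median was 64.1% for the 13 core genes, 57.7% for the 14 cap genes and 25.9% for the 4 immune and PA28 genes. The share that lay between generations had a median of 4.90% over the 37 genes and 6.06% over all genes. It was highest for the immune beta subunits among the subunit classes, at a median of 12.1%, and for Psmb9 (14.1%) it was close to the share between lines (16.2%). With arrays weighted by their quality all 37 genes differed between lines (adjusted p = 0.00685 for Psmb9 and 0.0148 for Psmb10 in limma). The count also depended on the scaling, at 29 without rescaling and 31 with quantile normalization. Psma6, Psmb2, Psmd7 and Psme1 did not pass under either, and Psmd4 and Psmd11 did not pass without rescaling. Without series 42 the count was 29, and Psma4, Psmc1, Psmd4, Psmd11, Psme1 and Psme2 were then not called either.

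**Figure D1:**
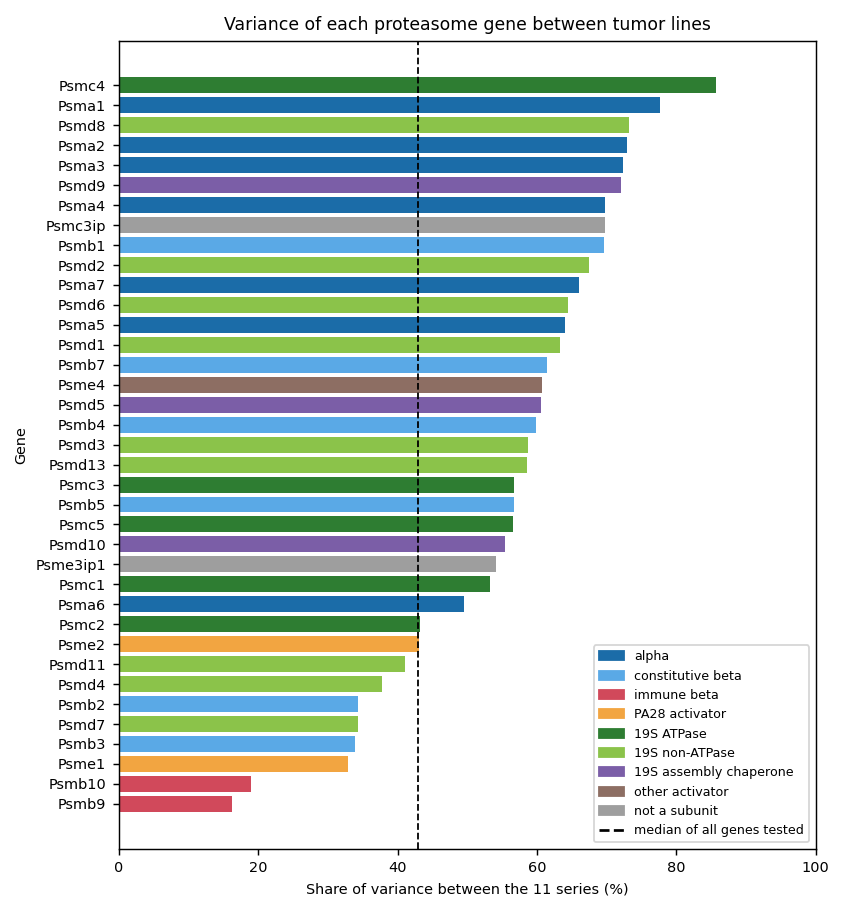
Share of each gene's variance that lay between the 11 tumor lines, in percent, with bars coloured by class and the median of all tested genes as a dashed line. Psmc4 stands at the top with 85.7% and the immune subunits Psmb10 and Psmb9 at the bottom with 19.0% and 16.2%.

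Among the core genes, alpha subunits held the largest shares. Psma1 had 77.7% of its variance between lines, Psma2 72.9% and Psma3 72.3%. The means of Psma1 ran from 9.54 ± 0.24 (SD, n = 6) in series 17 to 10.55 ± 0.03 (SD, n = 6) in series 42. Its 6 tumors of series 42 lay between 10.51 and 10.59, inside the range of the other lines, whose highest tumor reached 10.63. Psma2 had its highest mean in series 42 (10.80) and its lowest in series 17 (9.97). Psma3 ran the other way, with its lowest mean in series 42 (6.88 ± 0.14, SD, n = 6) against line means of 7.45 to 7.95 elsewhere. The 6 tumors of series 42 lay between 6.71 and 7.11, and only the transplant 5 tumor of series 32, at 6.75, overlapped them. The core gene that differed least between lines was Psmb3, a constitutive beta subunit, at 33.9%, with line means from 10.44 in series 36 to 10.84 in series 25R and overlapping tumors.

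In the cap, Psmc4, an ATPase of the ring that unfolds substrates, had the largest share of all 37 genes, 85.7%. Its 6 tumors of series 42 lay at 10.28 in the primary tumor and at 10.39, 10.54, 10.54, 10.58 and 10.75 in transplants 1 to 5. The 59 tumors of the other lines lay between 8.97 and 9.97, so series 42 did not overlap them. Psmd8, a non-ATPase of the lid, had 73.2%, with 9.81 to 10.16 in series 42 and 8.24 to 9.73 in the rest. Psmd2, the large scaffold of the cap base, had 67.5% and lay between 10.48 and 10.91 in series 42, against 8.98 to 10.44 elsewhere. Neither gene overlapped between series 42 and the other lines, and nor did Psma4, Psmb7, Psmc3, Psmc5 and Psmc3ip. The share of all tested genes without such overlap was not counted, and 31.3% of them had their highest mean in series 42. The lack of overlap is therefore not read as particular to these genes. At the other end of the cap, Psmd7, a lid subunit, had 34.3%, with line means from 8.73 in series 36 to 9.17 in series 32. Psmd9, an assembly chaperone, had 72.0%, Psmb1, a constitutive beta subunit, and Psma4 each about as much (69.6% and 69.8%), and the recombination factor Psmc3ip 69.7%.

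Series 42 was the line with the highest mean in 24 of the 37 genes, while 31.3% of all tested genes had their highest mean there. Its median deviation from the mean of each gene was 0.35 over the 37 genes and 0.06 over all genes. The deviation was larger in the cap (median 0.57) than in the core (median 0.25) or the immune and PA28 genes (median 0.20), and that order was not tested. It was largest for Psmc4 (0.95), Psmd8 (0.82), Psmd9 (0.82), Psmd2 (0.80) and Psma4 (0.79). Of the 37 genes 34 were above their mean in this line, and the exceptions were Psma3 (-0.76), Psme4 (-0.50) and Psmc2 (-0.34), a cap ATPase. Psme4 was read here from the brightest of its probe sets, which disagreed on its change with passage. Psma3 was the dimmest alpha subunit, with a mean of 7.64 over all arrays against 9.78 to 10.60 for the others. Series 42 is also the line whose epithelial markers were near the floor, and the part of that in the proteasome levels was not tested.

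Series 17 lay at the other end. It had the lowest line mean in 17 of the 37 genes, where 8.52% of all genes had their lowest mean in that line. The median deviation there was -0.23, with -0.24 in the core, -0.24 in the cap and -0.19 in the immune and PA28 genes, and only 1 of the 37, Psma3, was above its mean (0.15). Series 25L (-0.18), 19 (-0.16) and 10 (-0.16) were also low, whereas series 34 (0.16), 33 (0.13) and 32 (0.06) were above the mean. Series 33 had the highest mean of both immune subunits, 10.55 ± 0.20 for Psmb9 and 9.08 ± 0.09 for Psmb10 (SD, n = 6).

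**Figure D2:**
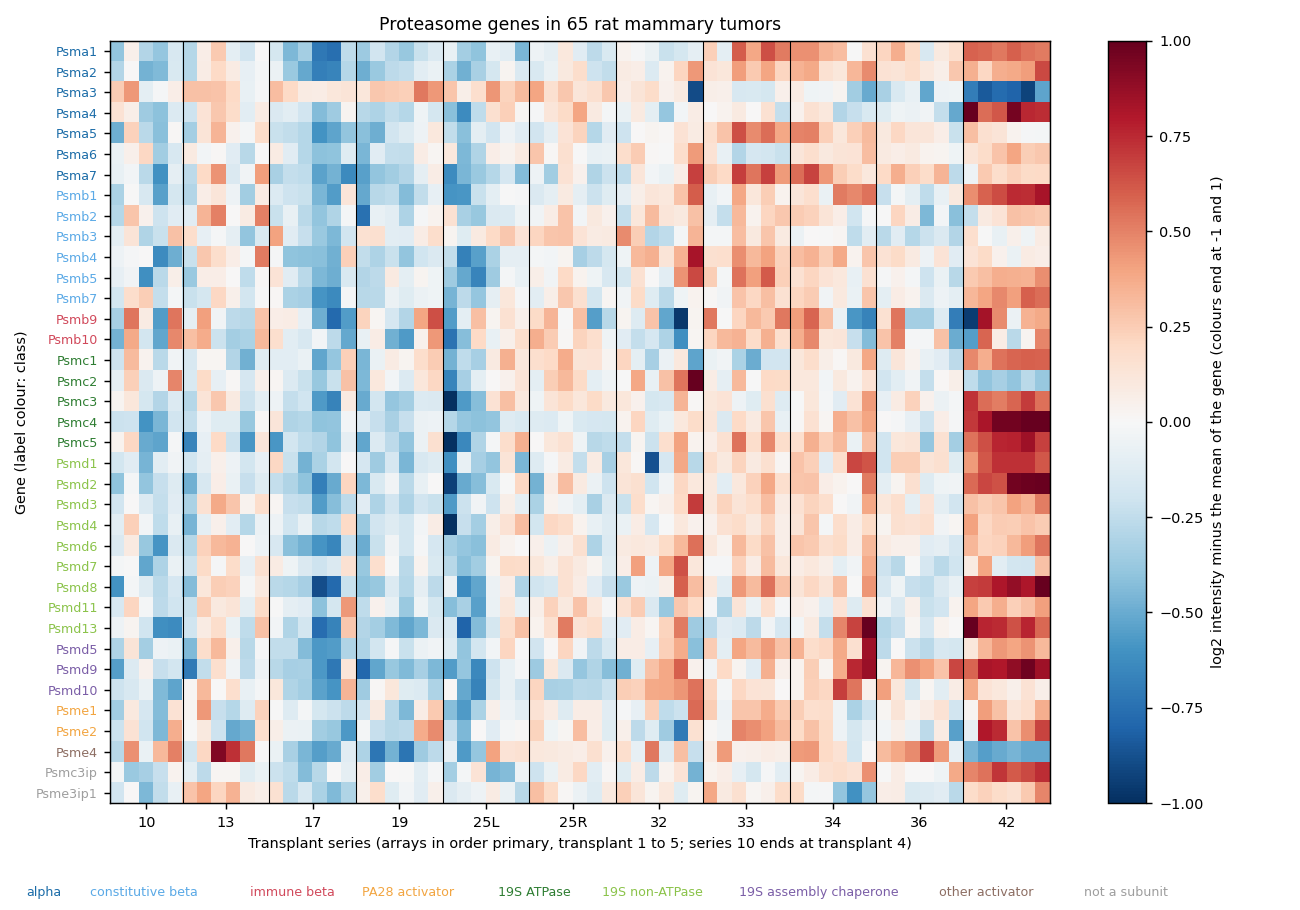
Log2 intensity of each of the 37 genes in each of the 65 tumors, relative to the gene's mean, with rows coloured by class and columns ordered by line and then by generation. Series 42 is red over most core and cap rows but blue for Psma3, Psmc2 and Psme4, and the rows of Psmb9 and Psmb10 change colour within lines.

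Transplanted tumors were compared with the primary tumor of their own line, to see which proteasome genes changed with passage. The limma fit holds line and generation as factors and takes the tumors of 1 line as separate observations around the level of that line, although each descends from the one before. Over the mean of transplants 1 to 5, 4 of the 37 genes rose and 1 fell past an adjusted p of 0.05 (9.5% of all tested genes were called, 4.44% upward and 5.06% downward). At transplant 5 alone, 6 rose and 1 fell (14.1% of all genes, 7.37% upward and 6.72% downward). These counts are 13.5% and 18.9% of the 37 genes, each a few points above the share of all genes, and nothing particular to the proteasome is read from them. The median change at transplant 5 was 0.10 over the 37 genes and 0.02 over all genes. It was 0.17 in the cap, 0.10 in the core and 0.04 in the immune and PA28 genes, with 13 of 14 cap genes, 8 of 13 core genes and 4 of 4 immune and PA28 genes above 0, where 4641 of all 8499 genes were. These medians depend on the scaling. With quantile normalization the median was 0.03 over the 37 genes and 0.004 over all genes. It was 0.12 in the cap, -0.001 in the core and -0.05 in the immune and PA28 genes. Without rescaling it was -0.01 over the 37 genes and -0.09 over all genes. The classes then stood at 0.06 in the cap, -0.01 in the core and -0.08 in the immune and PA28 genes. Only the cap stayed above 0 under both. Because the median of all genes moved too, these signs alone do not set the cap apart. With 1 value per line, which does not assume independence within lines, only Psmd9 passed over all transplants (limma adjusted p = 0.0428, 1.59% of all genes) and none of the 37 at transplant 5 (1.56% of all genes, with the lowest adjusted p at 0.0543).

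Psmd9, the chaperone that helps to build the ATPase ring, rose most. It had a lowest, median and highest value of 6.92, 7.34 and 8.28 in the 11 primary tumors and of 7.25, 7.75 and 8.56 in the 10 transplant 5 tumors. The generations overlapped widely because lines differed more than generations. Within lines the mean of the transplants was above the primary tumor in 10 of 11, from -0.09 in series 17 to 0.72 in series 32. The change was 0.34 ± 0.07 (SE) over all transplants (limma adjusted p = 0.0018) and 0.43 ± 0.10 at transplant 5 (limma adjusted p = 0.00277, higher in 9 of 10 lines). Leaving out any 1 line did not end either call. The other cap chaperones did not pass: over all transplants Psmd5 stood at 0.12 and Psmd10 at -0.12.

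Psmb1, a constitutive beta subunit without a protease site, was the only core gene called in the fit described above. Psmb2 changed by 0.17 over all transplants and 0.23 at transplant 5 (limma adjusted p = 0.0935 and 0.0704). It was called upward in both comparisons without any 1 of series 25L, 34 or 36. With quantile normalization Psmb3 was called downward as well, at -0.19 over all transplants and -0.24 at transplant 5 (limma adjusted p = 0.0287 and 0.0372), and so was Psma6 over all transplants (-0.15, 0.0332). The lowest, median and highest values of Psmb1 were 9.72, 10.17 and 10.77 in primary tumors and 10.19, 10.40 and 11.13 at transplant 5. Psmb1 was higher at transplant 5 in 10 of 10 lines. Its change was 0.35 ± 0.08 (SE, limma adjusted p = 0.00226) at transplant 5 and 0.20 ± 0.06 (limma adjusted p = 0.0259) over all transplants, where it was higher in 10 of 11 lines. The call of Psmb1 over all transplants was lost without any 1 of series 13, 19, 25L, 32 or 42, with limma adjusted p of up to 0.0609. The alpha subunits had a median change of -0.0008 at transplant 5, between -0.14 for Psma3 and 0.15 for Psma2, and 0 of 7 passed in limma (1 at an unadjusted p under 0.05).

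In the cap, Psmc2, Psmc5, Psmd2 and Psmd4 were called at transplant 5. Psmd2 had a lowest, median and highest value of 8.98, 9.67 and 10.48 in primary tumors and 9.71, 10.05 and 10.91 at transplant 5, a change of 0.35 ± 0.09 (SE, limma adjusted p = 0.00973, higher in 9 of 10 lines). Psmc2 went from 9.52, 10.08 and 10.28 to 9.80, 10.32 and 11.33, a change of 0.35 ± 0.09 (limma adjusted p = 0.00848, higher in 9 of 10 lines). Its highest value was the transplant 5 tumor of series 32, and the call was kept when that line was left out. Both calls were kept without any 1 line. With array weights the transplant 5 calls of Psmd2 (0.26, limma adjusted p = 0.0859), Psmc2 (0.19, 0.149), Psmd9 (0.30, 0.0564) and Psmb1 (0.22, 0.0871) were all lost, and without rescaling that of Psmd2 (0.23, 0.102) was.

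Psmc5, another ATPase of the ring, and Psmd4, the ubiquitin receptor of the cap, were less secure. Psmc5 had 7.77, 8.60 and 9.34 in primary tumors and 8.46, 8.94 and 9.48 at transplant 5, a change of 0.32 ± 0.11 (SE, limma adjusted p = 0.0482). Psmd4 had 8.07, 9.02 and 9.48 in primary tumors and 8.96, 9.15 and 9.39 at transplant 5, a change of 0.24 ± 0.08 (SE, limma adjusted p = 0.0383). Both have their largest change in series 25L, where transplant 5 exceeded the primary tumor by 1.39 for Psmc5 and by 1.32 for Psmd4. The primary tumor of that line had the lowest Gapdh ratio of all 65 arrays (-0.18). With this ratio in the fit the changes were 0.29 for Psmc5 and 0.22 for Psmd4 (limma adjusted p = 0.0903 and 0.0814), and the part of RNA integrity in them was not tested further. The Psmc5 call was lost without any 1 of series 13, 17, 19, 25L, 32, 33, 34 or 42 (limma adjusted p of up to 0.167), and the Psmd4 call without any 1 of series 13, 17, 19, 25L, 32 or 34 (up to 0.159). Over all transplants Psmc5 (0.26 ± 0.09, limma adjusted p = 0.0416) and Psmd2 (0.22 ± 0.07, limma adjusted p = 0.0375) were called. Those calls were lost for Psmc5 without any 1 of series 13, 17, 19, 25L, 32, 33 or 42 (up to 0.106) and for Psmd2 without any 1 of series 10, 13, 19, 25L, 25R or 42 (up to 0.113).

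Psme3ip1, which binds PA28 gamma and is no proteasome subunit, was the gene that fell. It had 8.11, 8.48 and 8.69 as lowest, median and highest in primary tumors and 7.91, 8.34 and 8.78 at transplant 5. The change was -0.17 ± 0.05 (SE, limma adjusted p = 0.0227, lower in 8 of 11 lines) over all transplants and -0.19 ± 0.07 (limma adjusted p = 0.0449, lower in 8 of 10) at transplant 5. The first call was lost without any 1 of series 17, 25R, 32, 33 or 34 (up to 0.0954) and the second without any 1 of 13, 17, 25R, 32, 33, 34 or 36 (up to 0.126).

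The counts moved with single lines and with the fit. Over all transplants the count of 5 became 2 without series 13, 19 or 32 and 3 without 25R or 33, and the count of 7 at transplant 5 became 4 without 13, 17 or 32. With the Gapdh ratio added to the fit, 1 gene (Psmd9) passed over all transplants and 4 (Psmb1, Psmc2, Psmd2 and Psmd9) at transplant 5, while the median change of the 37 genes was as large as before (0.06 against 0.05 over all transplants and 0.10 against 0.10 at transplant 5). Without rescaling the arrays 2 and 4 genes passed, with quantile normalization 9 and 7, and without line as a factor none did (0 over all transplants and 0 at transplant 5, where the line differences remain in the error). Rescaling also sets the balance of calls over all genes: 46.7% of called genes rose over all transplants and 52.3% at transplant 5, against 28.7% and 16.7% without it. Without the transplant 5 array of series 32 the count at transplant 5 was 5 and over all transplants 6.

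**Figure D3:**
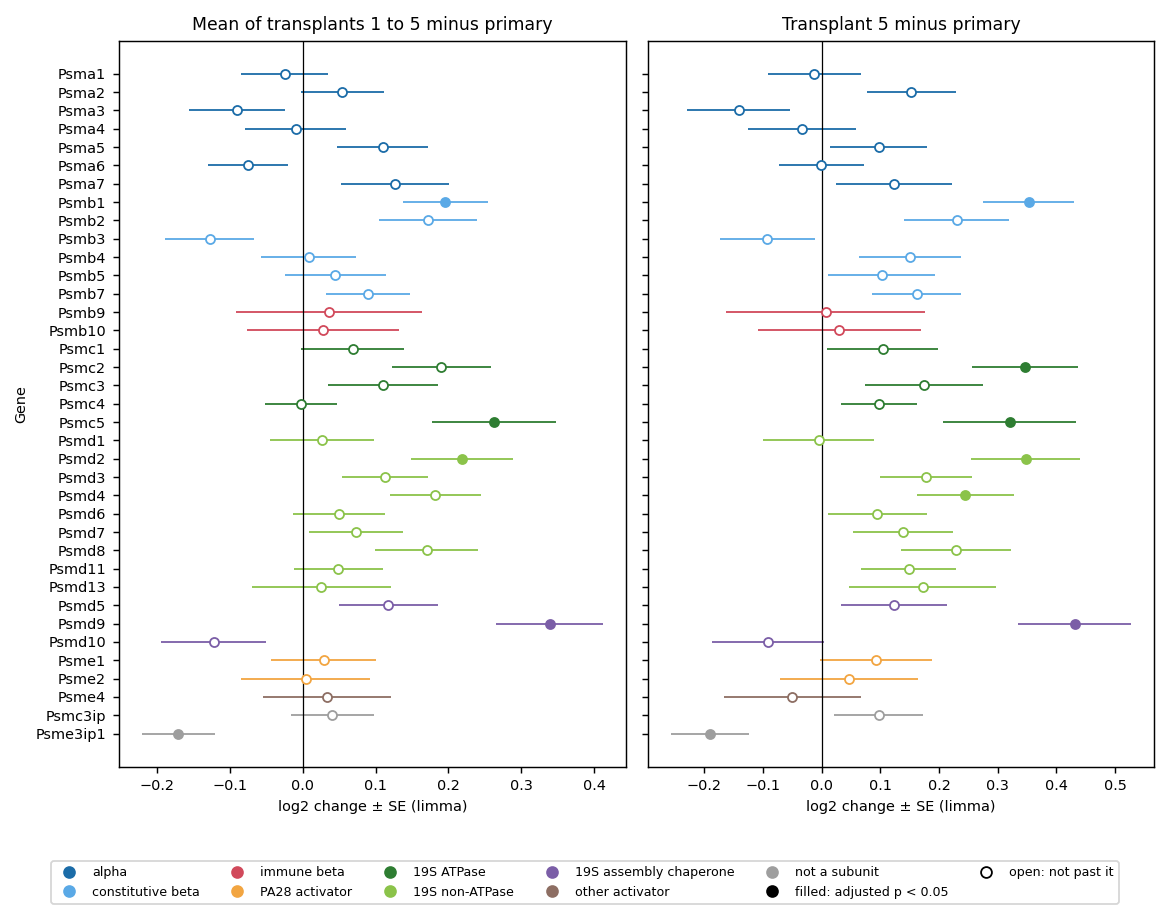
Change in log2 intensity with its standard error (limma) for each of the 37 genes, for the mean of transplants 1 to 5 (left) and transplant 5 (right) against the primary tumor, coloured by class. Filled points passed an adjusted p of 0.05. Psmd9 lies furthest to the right in both panels (0.34 and 0.43), and the immune and PA28 genes lie close to 0.

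From transplant 1 to transplant 5 no gene of the 37 had a slope past the threshold in limma, where 4.82% of all genes did (2.04% upward and 2.79% downward) and 5 of the 37 had an unadjusted p under 0.05. The steepest was Psmb9 at -0.08 ± 0.04 (SE) per transplant (limma adjusted p = 0.171), lower in 8 of 11 lines. Any difference among the 6 generations was called for Psmd9 (limma adjusted p = 0.0277) and Psmb1 (0.048), 2 of 37, where 4.79% of all genes were called. That count was 0 without any 1 of series 13, 19, 32, 34 or 36 and 1 without 17, 25R, 42 or the transplant 5 array of series 32.

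The immune subunits and PA28 had no called change in any comparison with the primary tumor. Psmb9, the interferon-induced counterpart of Psmb6, had a lowest, median and highest value of 9.30, 10.31 and 10.77 in primary tumors, 10.11, 10.59 and 11.08 at transplant 1 and 9.55, 10.28 and 10.89 at transplant 5. Its change was 0.04 ± 0.13 (SE) over all transplants (limma adjusted p = 0.896, higher in 4 of 11 lines) and 0.01 ± 0.17 at transplant 5 (limma adjusted p = 0.982). Without series 42 the first value was -0.10 (limma adjusted p = 0.684). Psmb10, the counterpart of Psmb7, had 8.07, 8.99 and 9.18 in primary tumors and 8.30, 8.91 and 9.31 at transplant 5, with changes of 0.03 ± 0.10 and 0.03 ± 0.14 (limma adjusted p = 0.902 and 0.903). All generations overlapped for both genes.

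The PA28 genes, which interferon also induces, were likewise not called. Psme1, the alpha chain, had 10.40, 10.85 and 11.07 in primary tumors and 10.56, 10.89 and 11.40 at transplant 5, with changes of 0.03 ± 0.07 over all transplants and 0.09 ± 0.10 at transplant 5 (limma adjusted p = 0.849 and 0.542). The second turned to -0.02 both without rescaling and with quantile normalization. Psme2, the beta chain, had 9.97, 10.20 and 10.42 in primary tumors and 9.63, 10.28 and 10.88 at transplant 5, with changes of 0.004 ± 0.09 and 0.05 ± 0.12 (limma adjusted p = 0.983 and 0.828). The primary tumors of Psme2 spanned a narrower range than the transplants.

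Within lines the immune subunits were the most mobile of the 37 genes. The standard deviation within lines was 0.41 for Psmb9 and 0.33 for Psmb10, against a median of 0.20 for the core genes, 0.21 for the cap genes and 0.26 for all genes. From its lowest to its highest tumor a line spanned a median of 0.93 in Psmb9 and 0.92 in Psmb10, and of 0.43 in Psmb7. The largest step was in series 42, where Psmb9 went from 9.30 in the primary tumor to 11.08 at transplant 1 and Psmb10 from 8.26 to 9.40. In the same line Psmb9 then lay at 10.71, 10.19, 10.59 and 10.62. Other lines moved at other times: in series 19 Psmb9 was lowest at transplant 3 (9.95) and highest at transplant 5 (10.89), and in series 32 it fell to 9.28 at transplant 4.

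The RNA balance of Psmb10 against Psmb7 was tested as the change of their difference within each line. RNA levels do not show whether one subunit replaced the other in the proteasome. Psmb10 minus Psmb7 changed by -0.06 ± 0.10 (SE, n = 11 lines) over all transplants, above 0 in 4 of 11 lines, from -0.53 to 0.58 (exact two-sided sign-flip permutation p = 0.577, and 0.577 adjusted over the 2 tests). At transplant 5 the difference changed by -0.16 ± 0.18 (SE, n = 10 lines), above 0 in 4 of 10 lines (exact two-sided sign-flip permutation p = 0.385, adjusted 0.577). Psmb7 itself changed by 0.09 ± 0.06 over all transplants and 0.16 ± 0.08 at transplant 5 (limma adjusted p = 0.331 and 0.140), higher in 9 of 10 lines at transplant 5. With 25L and 25R averaged into 1 line the 2 values were -0.06 and -0.17 (exact permutation p = 0.527 and 0.387). Neither test found a shift in one direction over the lines.

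**Figure D4:**
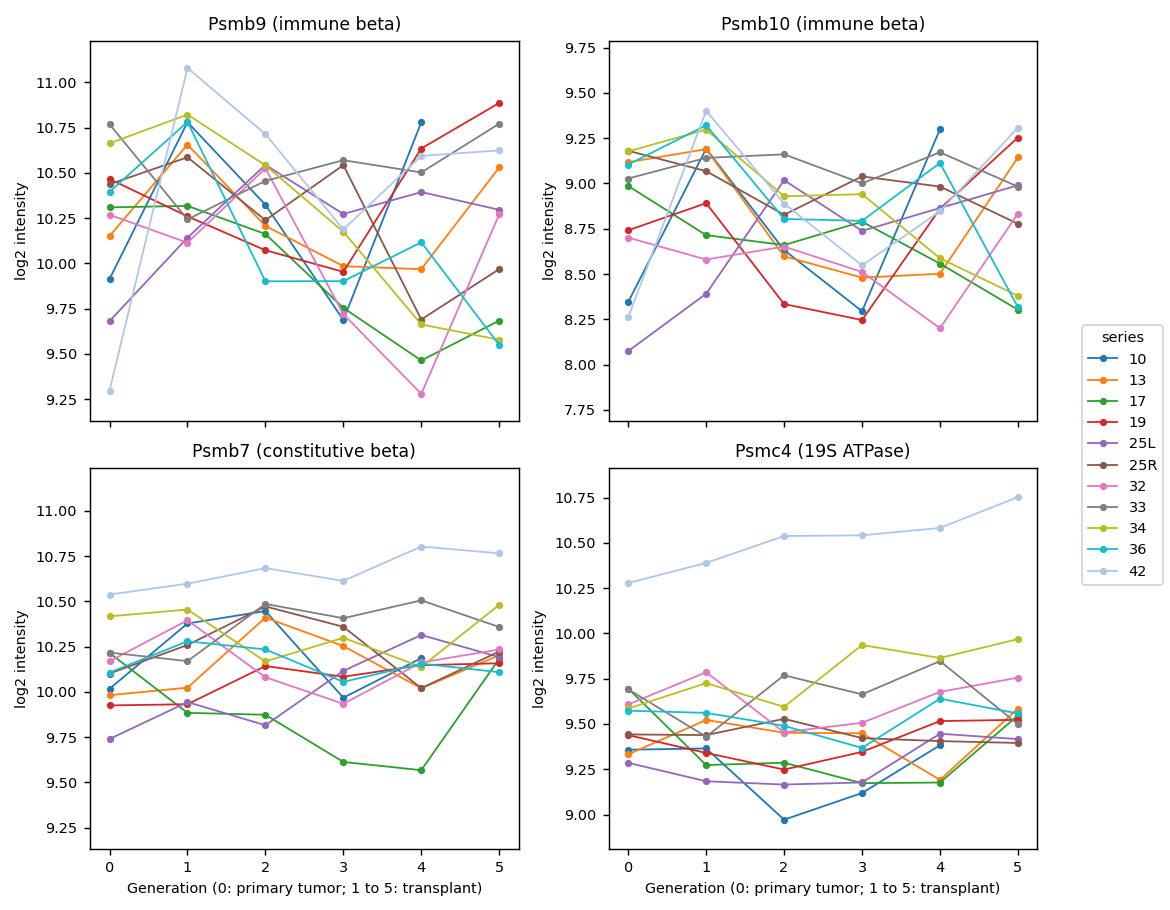
Log2 intensity of Psmb9, Psmb10, Psmb7 and Psmc4 by generation, 1 coloured line per tumor line, on panels that span the same number of log2 units. Psmb9 and Psmb10 cross between generations, with the primary tumor of series 42 at 9.30 and its first transplant at 11.08 for Psmb9, whereas series 42 stays above all other lines for Psmc4.

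The immune and PA28 genes moved together within lines more closely than they moved with the core. After subtracting each line's mean, Psmb9 correlated over the 65 arrays with Psmb10 (Pearson r = 0.83), Psme2 (0.80) and Psme1 (0.71). The median over the 6 pairs of immune and PA28 genes was 0.79. Core genes correlated with each other at a median of 0.46 (78 pairs), cap genes at 0.49 (91 pairs) and core with cap at 0.40, whereas core and immune genes stood at 0.30 and cap and immune genes at 0.17. The mean over all pairs of tested genes was 0.009. Between adjacent generations of a line, Psmb9 and Psmb10 moved the same way in 40 of 54 steps, Psmb9 and Psme2 in 41, and Psmb9 and the mean of the core in 32. With the mean of the core, Psmb9 stood at 0.44, Psmb10 at 0.38, Psme1 at 0.53 and Psme2 at 0.51, which is within the range of the cap genes (0.23 to 0.82). The points of these correlations share arrays, scaling and line descent, so the coefficients are descriptions only.

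**Figure D5:**
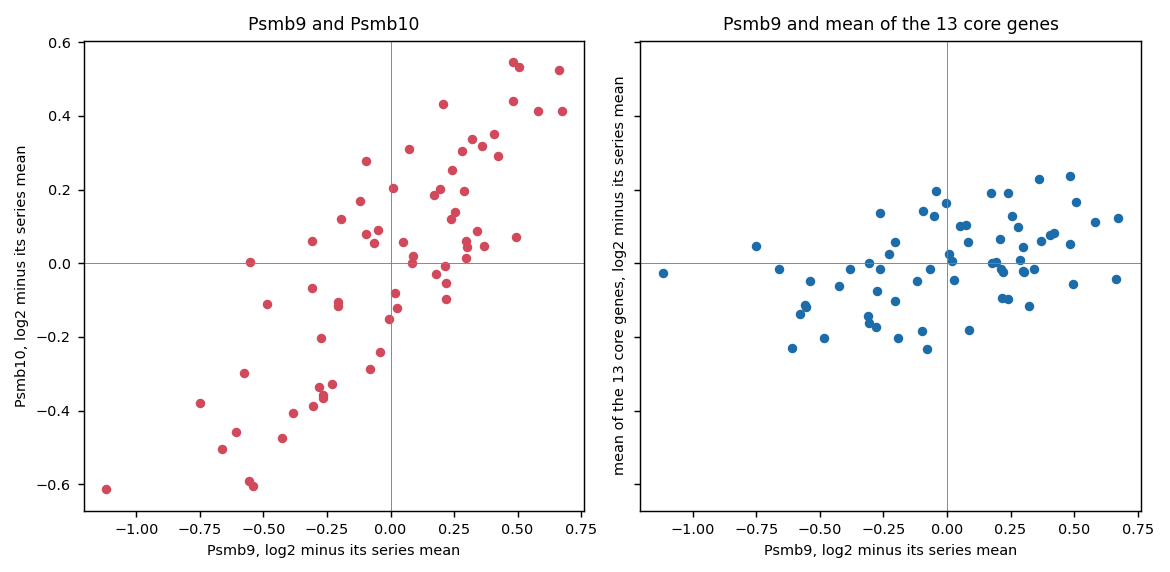
Deviation of Psmb9 from its line mean (x axis, log2) against that of Psmb10 (left) and of the mean of the 13 core genes (right), 1 point per tumor, 65 tumors. Psmb10 follows Psmb9 (r = 0.83) more closely than the core mean does (r = 0.44).

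Within the core and cap some genes stood outside the shared movement. Psma3 correlated with the mean of the other core genes at 0.06 over the 65 arrays, while the other alpha subunits stood between 0.52 for Psma6 and 0.77 for Psma2. In the cap the coefficients with the core mean ran from 0.23 for Psmd1, the other large scaffold, to 0.82 for Psmd6, a lid subunit. Psmd9 stood at 0.31 and Psmc3ip, which is no subunit, at -0.22. A second probe set on the array carries both Psma3 and its near-identical copy Psma3l, so the values of Psma3 are uncertain to the extent that these genes share signal.

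The 5 genes outside the family whose deviations were most like those of Psmb9 were Tap1 (r = 0.86), the peptide transporter of class I loading, Irgm2 (0.80), an interferon-induced GTPase, RT1-A (0.78), a class I heavy chain, Bst2 (0.77), an interferon-induced membrane protein, and Rnf114 (0.75), a ubiquitin ligase. For the mean of the core they were C1h11orf98 (0.82), Nutf2 (0.81), a nuclear import factor, Mrpl27 (0.81), a mitochondrial ribosomal protein, Elob (0.81), a ubiquitin ligase adaptor, and Ubl5 (0.80), a ubiquitin-like protein. The mean of a list of 14 class I loading genes correlated with Psmb9 at 0.77 and the mean of 21 interferon response genes at 0.57. The list of T and NK cell markers stood at 0.09 (15 genes), macrophage markers at -0.20 (10 genes), epithelial markers at 0.55 (10 genes), endothelial markers at -0.41 (5 genes) and fibroblast matrix genes at -0.35 (9 genes). The part of any of these cell types in the movement of Psmb9 was not tested.

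Genes that work with the proteasome were read from a list of 24 tested genes that holds its assembly factors, shuttles and regulators. Over all transplants 3 rose and 1 fell in limma (9.5% of all genes were called), and at transplant 5 6 rose and 1 fell (14.1% of all genes were called). Adrm1, a ubiquitin receptor of the cap, changed by 0.32 ± 0.06 (SE, limma adjusted p = 0.00018, higher in 10 of 11 lines) over all transplants. Psmg3, a chaperone of the core (0.27), and Rad23b, a shuttle for ubiquitinated proteins (0.29), were also called. Nfe2l1, the activator of proteasome genes, fell by 0.36 on the log2 scale over all transplants (limma adjusted p = 0.0073, lower in 10 of 11 lines) and by 0.36 at transplant 5 (limma adjusted p = 0.0334, lower in 8 of 10). Pomp, the maturation factor of the core, was among the genes that rose at transplant 5 (0.29). The mean of this list correlated with the core mean at 0.72 within lines.

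Of the 14 class I loading genes 2 rose in each comparison, RT1-N3 (0.46 over all transplants and 0.53 at transplant 5) and RT1-T24-4 (0.29 and 0.40), both class I heavy chains of the rat. Over all genes 9.5% were called over all transplants and 14.1% at transplant 5, so this count is near the background. Of 19 tested interferon response genes, Cxcl10 rose over all transplants (0.44, limma adjusted p = 0.0155) and Ifngr2, a chain of the interferon gamma receptor, fell (-0.44, limma adjusted p = 0.000114, lower in 10 of 11 lines). At transplant 5 Irf8 (0.75), Ifit3 (0.39) and Cxcl10 (0.51) rose and Ifngr2 fell (-0.50). The interferon-induced gene Oas1b was at the floor on every array.

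Some markers of other cell types and of division also differed at transplant 5, where 7.37% of all genes rose and 6.72% fell. Epithelial markers fell in 5 of 10 genes (median change -1.31), from a median list mean of 10.10 (5.49 to 10.83) in primary tumors to 9.50 (5.49 to 10.28). The lines were not alike. Over all generations the list mean spanned 5.76 to 10.83 in series 32 and 5.47 to 10.69 in series 34. At transplant 5 Muc1 was lower in 10 of 10 lines, whereas Krt8 was lower in 5 and Krt7 in 3. Of 10 tested T and NK cell markers only Lck was called (0.66, upward, list median 0.33), with the list mean at 6.55 to 6.95 in primary tumors and 6.66 to 8.79 at transplant 5. Of 10 macrophage markers only Cd14 was called (-0.90), while the other 9 had values above 0 that did not pass (list median 0.36), with list means of 8.65 to 10.05 and 9.02 to 10.22. Of 13 genes of mitosis 4 rose (list median 0.54), among them Cks2 (0.85) and Ccnb1 (0.76). The only B and plasma cell marker on the array was at the floor in the median primary tumor and reached 9.08 in a transplant 5 tumor. The part of these shifts in the proteasome changes was not tested.

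Probe sets disagreed for Psme4, which encodes PA200. The brightest of its 3 changed by -0.05 at transplant 5, another by -0.54 and the last by 0.15. No direction of change with passage is therefore given for this gene. The 2 probe sets of Psmd11, a lid subunit, changed by 0.15 and 0.11 and went the same way, and the other 35 genes had 1 probe set each.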

How the data were processed

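RNA of 65 rat mammary tumors was measured on Affymetrix arrays. The values the authors deposited are linear intensities per probe set (1 to 12011); the sources used here do not give how probes were summarised or arrays normalized, and the values carry no counts, so the number of arrays limits precision. Per the labels' protocols, total RNA from frozen tissue was turned into biotin-labelled cRNA. Arrays were scaled to a common median of 162 over 15866 probe sets other than controls, floored at 39.8 (the pooled 10th percentile) and log2 transformed. Each gene was read from its brightest probe set with 1 symbol, and genes with a mean log2 below 6.35 (the 25th percentile of probe sets) were left out. Tests used limma 3.58.1 in R 4.3.3, two-sided, adjusted by Benjamini-Hochberg over 8499 genes, threshold 0.05, after checks on simulated data.

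Generation and line entered as factors, pairing tumors by descent as the design text describes. Of 65 arrays, 50 correlated best with an array of their own line (mean correlation 0.38 within lines, -0.04 between). Neither mean is of the plain log2 values, on which the median correlation of an array with the others was 0.71 to 0.92. P-values measure the spread among these tumors, 1 per line and generation. Alternatives were the normalization, floor, filter, probe set rule, array weights, a Gapdh 3′ to 5′ covariate, 25L and 25R as 1 line, 1 value per line, no line factor, each line left out and, chosen after seeing the data, the transplant 5 array of series 32 left out. The members and gene lists were chosen with earlier results of these data known. Named in full were members past the threshold (for lines, the 10 with the smallest p), immune and PA28 subunits, Psmb7, the 3 core and 3 cap genes with the largest share of variance between lines and the lowest of each, the 5 genes most like Psmb9 and the core mean, at most 5 called genes per related list, and members whose probe sets disagree; others are named to account for all 37. Another proteasome gene is not reported here.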

Additional observations from a re-analysis of the deposited data

Results flagged for a closer look

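Among the 10 tumors of transplant 5, 3 of the 37 genes had 1 tumor far from the others, judged by its gap to the nearest tumor relative to the whole range. Psma4 stood at 10.52 in series 42, where the nearest tumor was at 9.86. Psmc4 stood at 10.75 in series 42, where the nearest was at 9.97. Psmc2 stood at 11.33 in series 32, where the nearest was at 10.47. Chance would mark about 1 in 20 groups, and all 37 genes were examined. How many of all tested genes have such a tumor was not counted, so nothing particular to the proteasome is read from these 3. Psma4 and Psmc4 were marked by the same tumor, in a line where 31.3% of all tested genes had their highest mean. Both genes of series 42 were high in every generation of that line.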

How the results depend on the processing

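No result changed its direction past the threshold under any alternative. The count of genes called over all transplants (5) was 0 with no replicate block (line factor left out), 2 without rescaling, 9 with quantile normalization, 2 with array weights, 1 with the Gapdh covariate and 1 with 1 value per line, and 2 to 6 when a line was left out. At transplant 5 the count (7) was 0 with no replicate block, 4 without rescaling, 0 with array weights, 4 with the Gapdh covariate and 0 with 1 value per line, and 4 to 7 when a line was left out. The slope count (0) was 1 without rescaling. The count over generations (2) was 0 with no replicate block, 1 without rescaling, 0 with the Gapdh covariate, 1 with 25L and 25R as 1 line, 1 without the transplant 5 array of series 32, and 0 to 2 when a line was left out. The count over lines (35) stayed between 29 and 37. Psmd9 kept its call over all transplants in 22 of 23 settings and at transplant 5 in 20. Without rescaling the median of all genes at transplant 5 was -0.09 in place of 0.02, the median of the 37 genes was -0.01, and 16.7% of called genes rose in place of 52.3%. The cause of these moves was not tested. The paired comparison of Psmb9 with Psmb6 was not run, because Psmb6 had no probe set of its own.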
